A study of Homo sapiens with 6 samples.

Results

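Of the Notch pathway, 10 genes were examined in HT29 cells after knockdown of ALDOA: the receptors NOTCH1, NOTCH2 and NOTCH3, the ligands JAG1, JAG2 and DLL1, the targets HES1, HES4 and NRARP, and ATOH1, the secretory fate factor of the gut that HES1 represses. They were chosen by symbol from the 28278 genes of the count tables, and all 10 passed edgeR's filter on low counts, which left 15307 tested genes. HT29 is a human colorectal adenocarcinoma line with epithelial morphology. The cells received a siRNA against ALDOA (siALDOA) or a scrambled siRNA (siControl), and RNA for sequencing was isolated from 3 biological replicates of each 48 h later. ALDOA encodes the glycolytic enzyme aldolase A. The labels name only 1 siRNA for ALDOA, 1 cell line and 1 time, and the libraries include no untransfected cells. Both groups carried a transfected siRNA and differed only in its sequence as far as the labels state. The study asked what ALDOA does in colorectal cancer cells, and the members bear on a signalling pathway of the colon epithelium after ALDOA knockdown.

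Notch signalling passes between touching cells. A ligand of the Jagged or Delta-like kind on the surface of a cell binds a NOTCH receptor on its neighbour, the receptor is cut by an ADAM protease and then by gamma-secretase, and its intracellular domain moves to the nucleus, where it joins the DNA-binding protein RBPJ and a Mastermind-like coactivator to switch on HES genes and NRARP. In the intestinal epithelium this pathway keeps progenitors dividing and favours absorptive cells, while cells with low Notch activity keep ATOH1 and become secretory.

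Among the 10 members, JAG1 and NRARP fell and HES4 rose with siALDOA, and the other 7 did not pass the test. JAG1, which encodes the ligand Jagged 1, was at 24.4 ± 1.67 CPM with siALDOA and 33.5 ± 1.09 CPM with siControl (SD, n = 3 each). NRARP, a target that in turn restrains the pathway, was at 63.9 ± 1.98 CPM and 76.8 ± 1.41 CPM. HES4, a repressor of the HES family, was at 14.6 ± 1.24 CPM and 10.5 ± 0.832 CPM. The called targets, NRARP and HES4, thus moved in opposite directions. CPM values are counts scaled to a common library size by the totals and edgeR's TMM factors, and a gene was called changed at an adjusted p under 0.05 in edgeR's quasi-likelihood test with Benjamini-Hochberg adjustment over all 15307 genes.

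The share of members called in either direction was 30%, 3 of 10, where 9.66% of all tested genes were called. In the higher direction it was 1 member against 4.36% of all tested genes, and in the lower direction 2 members against 5.29%. With library totals only, without TMM factors, 2 members were called higher (NOTCH1 and HES4) and 1 lower (JAG1), where 896 of all 15307 tested genes were higher and 279 lower. The median log2 fold change (siALDOA over siControl) was -0.097 over the members and 0.002 over all tested genes. The CPM of the groups did not overlap for 4 members, JAG1, HES1, HES4 and NRARP, where 27.7% of all tested genes had groups that did not overlap.

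The totals lay between 27277538 and 28690395 counts for siALDOA and between 31899091 and 33237914 for siControl. Genes of ribosomal RNA took 7.71% to 13.1% of the siALDOA counts and 8.15% to 17.4% of the siControl counts. ALDOA itself was at 283, 305 and 280 CPM with siALDOA and at 592, 637 and 668 CPM in the controls (log2 fold change -1.13, standard error 0.060, edgeR adjusted p = 6.95e-11). Of 12 markers of colon epithelium 11 were tested, with a summed level of 9560 to 9890 CPM and 10100 to 10700 CPM, and LGALS4 was at 0 in all libraries. By log2 fold change, KRT18 (-0.28) and HNF4A (-0.21) fell and KRT19 (0.38) rose. The summed markers of fibroblasts, endothelium and blood cells reached at most 4.39, 2.25 and 0.387 CPM in any library. Only PECAM1 of endothelium was called among them, at -1.23 (edgeR adjusted p = 0.0429) and 0.422 to 2.09 CPM, and its part in the results was not tested. At 0 in all libraries were 2 of 6 fibroblast, 1 of 5 endothelium and 3 of 6 blood cell markers.

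The promoters of the members were searched for the site of the nuclear complex. RBPJ recognises the core TGGGAA, which was sought on both strands in the RefSeq promoter windows of GRCh38.p14, from 250 bases before to 50 bases after each start. Of 27305 windows 24.3% held the core, and 1.72% held the longer form TGTGGGAA, which contains it. A window was found for 9 of the 10 members, all but DLL1. HES1 held the core at positions -84 and -70 from the start and HES4 at -76, and in both genes the longer form was present, at -86 in HES1 and -78 in HES4. No TGGGAA was found in the windows of NOTCH1, NOTCH2, NOTCH3, JAG1, JAG2, NRARP or ATOH1, which says only that these letters are not in them. The sequences of the called members and of HES1 follow, 5′ to 3′ on the strand of the gene, with TGGGAA in capitals. HES1 and HES4 are shown because both carry the core although only HES4 was called, and NRARP and JAG1 because they were the members that fell.
HES1 (chr3:194136028-194136147, plus strand, positions -120 to -1): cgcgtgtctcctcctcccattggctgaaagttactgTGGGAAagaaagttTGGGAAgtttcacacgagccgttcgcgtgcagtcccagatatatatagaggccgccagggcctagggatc
HES4 (chr1:1000160-1000189, minus strand, positions -92 to -63, partly inside an exon of a longer GENCODE transcript of HES4): ttggctggggcgagtgTGGGAAagaatgcg
NRARP (chr9:137302272-137302391, minus strand, positions -120 to -1): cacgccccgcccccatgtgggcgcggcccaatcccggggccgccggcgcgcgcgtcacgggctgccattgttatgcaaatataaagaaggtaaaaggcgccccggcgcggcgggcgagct
JAG1 (chr20:10674000-10674119, minus strand, positions -120 to -1): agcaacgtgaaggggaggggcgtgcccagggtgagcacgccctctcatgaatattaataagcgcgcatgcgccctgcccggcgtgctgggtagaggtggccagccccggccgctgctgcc
Over all tested genes with a window, the 2457 that held TGGGAA had a median log2 fold change of 0.01, with 4.76% called higher and 5.74% called lower, and the 8887 without it had a median of 0.0, with 4.43% and 5.54%. For the longer form, the 157 that held TGTGGGAA had a median log2 fold change of -0.02, with 4.46% called higher and 7.64% called lower. The 11187 without the longer form had a median of 0.0, with 4.51% called higher and 5.55% called lower. The N box CACNAG, a site bound by HES repressors, was present in 38.0% of windows on either strand. It matched 4 times in HES1, 2 times each in ATOH1 and NOTCH1 and 1 time each in NOTCH2, NOTCH3 and NRARP, and no match was found in HES4, JAG1 or JAG2.

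The members spanned a wide range of levels. Per kilobase of the canonical transcript, the siControl mean was highest for HES1 at 32.6 CPM per kb, followed by NRARP at 29.1, HES4 at 11.8, NOTCH1 at 8.54, NOTCH2 at 7.83, JAG1 at 5.64, JAG2 at 3.99, ATOH1 at 2.99, DLL1 at 1.37 and NOTCH3 at 0.138 CPM per kb. The targets HES1, NRARP and HES4 thus stood above the receptors, and the receptors NOTCH1 and NOTCH2 above the ligands. The siControl values of NOTCH1 and NOTCH2 overlapped, as did those of JAG2 and ATOH1, and the other neighbours in this order were apart. With siALDOA, ATOH1 stood above JAG2. When the length was the union of all exons instead, NRARP stood above HES1, the values of JAG1 and JAG2 overlapped and those of NOTCH1 and NOTCH2 did not.

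**Figure D1:**
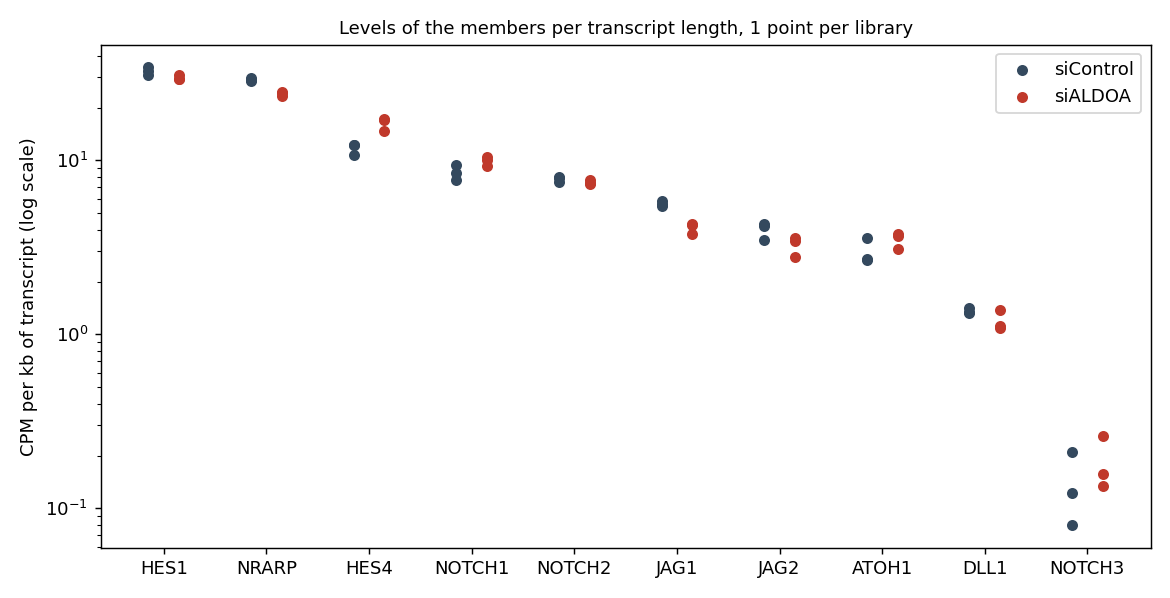
Levels of the 10 members in CPM per kb of the canonical transcript (log axis), with 1 point per library, dark for siControl and red for siALDOA, ordered by the siControl mean. HES1 stood at the top, with a siControl mean of 32.6 CPM per kb, and NOTCH3 at the bottom, with 0.138 CPM per kb.

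Of the ligands only JAG1 was called. JAG1 (ENSG00000101384, chromosome 20, 10637684 to 10673999 on the minus strand of hg38) had the highest level per kilobase of canonical transcript among the member ligands. It was at 22.5, 25.2 and 25.6 CPM with siALDOA and at 33.3, 32.5 and 34.7 CPM with siControl. Every siALDOA library was below every siControl library. The change was -0.45 on the log2 scale (standard error 0.081), a fold of 0.73, with an adjusted p = 0.000887 in edgeR's quasi-likelihood test. Since RNA of whole cultures was measured, fewer cells with JAG1 and less JAG1 RNA per cell cannot be told apart, and the same holds for each gene here. The 3 libraries with the lowest share of ribosomal RNA were siALDOA replicates 2 and 3 and siControl replicate 3. They gave 25.2 and 25.6 CPM against 34.7 CPM, the last from 1 library with the highest siControl value. With a single siControl library this comparison carries no test, here and for the genes below.

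JAG2 (chromosome 14, 105140982 to 105168824) encodes the other Jagged ligand. It was at 16.1, 20.8 and 19.9 CPM with siALDOA and at 20.1, 24.1 and 24.9 CPM with siControl. The highest siALDOA library lay above the lowest siControl library. JAG2 changed by -0.28 (standard error 0.11, adjusted p = 0.109 in edgeR's quasi-likelihood test). JAG2 passed the threshold under 3 of 17 alternatives, among them without the filter on low counts (edgeR adjusted p = 0.0473) and without siControl replicate 1 (-0.37, edgeR adjusted p = 0.0422), while without siALDOA replicate 1 the value was -0.18 (edgeR adjusted p = 0.323). DLL1 (chromosome 6, 170282206 to 170306565), a Delta-like ligand, was at 4.2, 5.22 and 4.12 CPM with siALDOA and at 5.03, 5.11 and 5.34 CPM with siControl. The groups overlapped through siALDOA replicate 2, and the log2 fold change of -0.19 (standard error 0.17, edgeR adjusted p = 0.541) did not pass the test, and was -0.31 without siALDOA replicate 2. Of the exon bases of DLL1 9.69% also lie in exons of FAM120B on the opposite strand, and since the strand setting of the counting is not stated, reads there cannot be assigned to either gene. Unnamed antisense RNAs in GENCODE, not used here, share 3.29% of the exon bases of JAG1 and 2.76% of those of NRARP, and an unnamed RNA on the same strand shares 7.33% of those of JAG2. DLL4, a further Delta-like ligand outside the members, changed by -0.03 (standard error 0.15, edgeR adjusted p = 0.931), and DLL3 was too low to be tested.

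Of the receptors none was called. NOTCH1 (chromosome 9, 136494433 to 136546048), a main receptor of intestinal progenitors, was at 96.7, 89.3 and 99.6 CPM with siALDOA and at 90.5, 73.8 and 80.9 CPM with siControl. Only siALDOA replicate 2 and siControl replicate 1 were out of order, with the first slightly below the second. The log2 fold change was 0.22 (standard error 0.072, unadjusted p = 0.00643, adjusted p = 0.0603 in edgeR's quasi-likelihood test). NOTCH1 passed the threshold under 5 of 17 alternatives and missed it under 12. The adjusted p was 0.0287 with library totals only, 0.0227 without the filter on low counts, 0.0437 with DESeq2 and 0.0151 without siControl replicate 1. It was highest, at 0.307, without siControl replicate 2, where the log2 fold change was 0.15.

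NOTCH2 (chromosome 1, 119911553 to 120100779), the other abundant receptor, was at 84.7, 88.4 and 83.6 CPM with siALDOA and at 90.8, 85.6 and 91.9 CPM with siControl. The groups overlapped, and the log2 fold change of -0.06 (standard error 0.060, edgeR adjusted p = 0.579) was about its own error and became 0.01 with library totals only. The genes NOTCH2NLA, NOTCH2NLB, NOTCH2NLC and NOTCH2NLR are near-identical partial copies of NOTCH2. Reads could have been split among them or counted on more than 1 of them. The NOTCH2 level is uncertain, in either direction, to that extent. Their log2 fold changes were -0.12, -0.19, -0.06 and 0.27, and none was called. NOTCH3 (chromosome 19, 15159038 to 15200995), a receptor best known from vascular smooth muscle, was at 2.26, 1.36 and 1.16 CPM with siALDOA and at 1.06, 1.83 and 0.698 CPM with siControl. The spread within each group was wide against the difference, and the log2 fold change of 0.42 (standard error 0.37, edgeR adjusted p = 0.553) did not pass the test. Leaving out single libraries moved it between 0.08 and 0.86, and none of these fits passed the test. NOTCH4, the receptor outside the members, was at 0.422 to 1.01 CPM in the 6 libraries and was not called (-0.10, standard error 0.43).

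The targets split. HES1 (ENSG00000114315, chromosome 3, 194136148 to 194138732, plus strand), the repressor that mediates most Notch effects in the gut, was at 48.5, 46.2 and 46.4 CPM with siALDOA and at 48.8, 53.9 and 51.5 CPM with siControl. The siALDOA libraries all lay below the siControl libraries, but the nearest pair was 48.5 and 48.8 CPM. The log2 fold change of -0.13 (standard error 0.067, edgeR adjusted p = 0.257) did not pass the test. NRARP (ENSG00000198435, chromosome 9, 137299631 to 137302271, minus strand), which binds the intracellular domain of NOTCH and limits its activity, was at 61.6, 64.7 and 65.3 CPM with siALDOA and at 78.4, 75.9 and 76 CPM with siControl. The groups were far apart against their spread. NRARP changed by -0.26 on the log2 scale (standard error 0.061), a fold of 0.832, with an adjusted p = 0.00761 in edgeR's quasi-likelihood test. With library totals only it was -0.19 (edgeR adjusted p = 0.172), a scaling that moved the median of all tested genes to 0.075, and with the ribosomal RNA genes left out as well it was -0.26 (edgeR adjusted p = 0.00996). In the 3 libraries low in ribosomal RNA its level was 64.7 and 65.3 CPM with siALDOA against 76 CPM in a single siControl library.

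HES4 (ENSG00000188290, chromosome 1, 998962 to 1000172, minus strand), a repressor of the same family as HES1 that mice lack, was at 13.1, 15.4 and 15.1 CPM with siALDOA and at 10.9, 10.9 and 9.5 CPM with siControl. Every siALDOA library was above every siControl library. HES4 rose by 0.48 on the log2 scale (standard error 0.11), a fold of 1.39, with an adjusted p = 0.00915 in edgeR's quasi-likelihood test. Without siControl replicate 3, the lowest library, it was 0.41 (edgeR adjusted p = 0.0675). The libraries low in ribosomal RNA gave 15.4 and 15.1 CPM against 9.5 CPM, the last from siControl replicate 3 alone, so these values carry no test. Among the other HES and HEY factors, HES6, which counters HES1, was at 55, 51.4 and 52 CPM with siALDOA and 47.6, 46.8 and 49.8 CPM with siControl. These values did not overlap, but the log2 fold change of 0.13 (standard error 0.066, edgeR adjusted p = 0.225) was not called. HES7 and HEYL were below 1 CPM and not called, and HES2, HES5, HEY1 and HEY2 were too low to be tested.

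**Figure D2:**
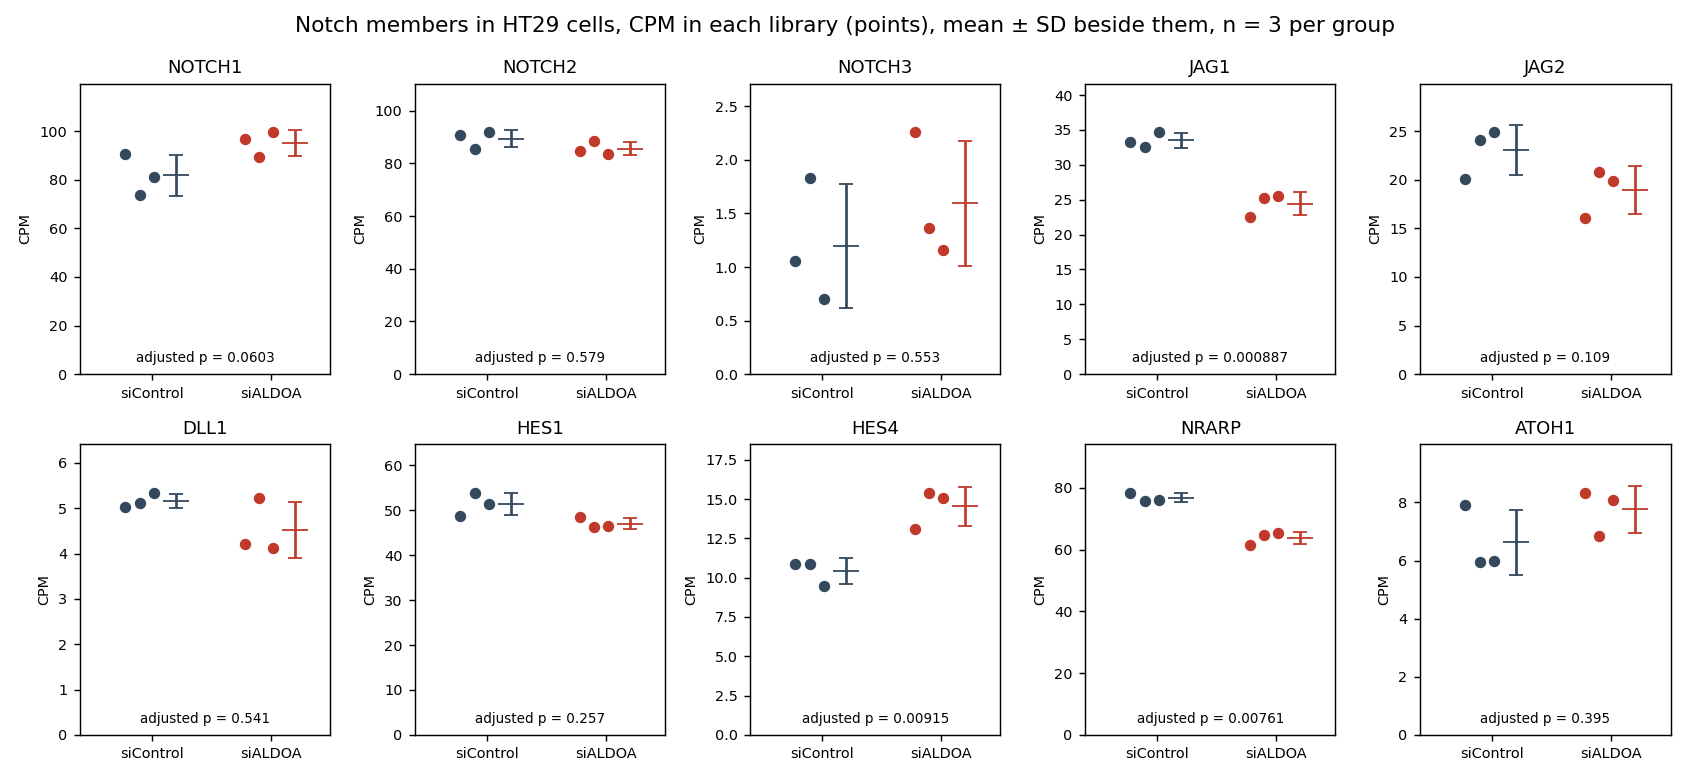
CPM of each member in each library (points, siControl dark, siALDOA red), with the mean and SD beside them (n = 3 per group, axes from 0) and the edgeR adjusted p in each panel. The siALDOA points of JAG1 and NRARP lie below, and those of HES4 above, all siControl points with a clear gap, while those of HES1 lie just below.

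ATOH1 (ENSG00000172238, chromosome 4, 93828753 to 93830964), which commits gut progenitors to secretory fates, was at 8.33, 6.85 and 8.09 CPM with siALDOA and at 7.92, 5.96 and 5.98 CPM with siControl. The groups overlapped through siControl replicate 1 and siALDOA replicate 2. Its change of 0.23 on the log2 scale (standard error 0.15, edgeR adjusted p = 0.395) did not pass the test, and ranged from 0.16 to 0.38, the latter without siControl replicate 1, when single libraries were left out. Of 10 tested secretory fate factors, ATOH1 included, FOXA2 rose and FOXA1 and KLF4 fell, 30% called against 9.66% of all tested genes (4.36% higher and 5.29% lower). FOXA2, a forkhead factor of goblet and endocrine differentiation, was at 15.2, 15.3 and 17.9 CPM with siALDOA and 13.2, 10.7 and 10.3 CPM with siControl (log2 fold change 0.50, standard error 0.12, edgeR adjusted p = 0.00856). FOXA1, its close relative, changed by -0.24 (standard error 0.072, edgeR adjusted p = 0.0393), and KLF4, a factor of goblet cell maturation, by -0.36 (standard error 0.10, edgeR adjusted p = 0.0279). FOXA1 and KLF4 lost the call with library totals only. When 1 library was left out at a time, FOXA1 kept it only without siALDOA replicate 3 and its adjusted p in edgeR reached 0.174. KLF4 lost it without siALDOA replicate 1 or 2 or siControl replicate 2 or 3, with an edgeR adjusted p of up to 0.144. The edgeR adjusted p of FOXA2 was 0.0554 when siALDOA replicate 3 was left out, 0.0558 when siControl replicate 2 was and 0.0621 when siControl replicate 3 was. SPDEF, a goblet cell factor downstream of ATOH1, changed by 0.01 (standard error 0.095, edgeR adjusted p = 0.949). GFI1, another ATOH1 target, was at 1.11, 0.2 and 0.528 CPM with siALDOA and 1.41, 1.31 and 1.12 CPM with siControl, and was not called (-1.07, standard error 0.46, edgeR adjusted p = 0.16). Of 8 goblet cell markers 5 were tested and none was called. The mucin gene MUC2 changed by -0.27 (standard error 0.11, edgeR adjusted p = 0.129) and TFF3 by 0.16 (standard error 0.14, edgeR adjusted p = 0.551). Of 5 enteroendocrine cell markers 2 were tested and none was called. They were SCG5 at 0.71 (standard error 0.46, edgeR adjusted p = 0.378) and SYP at 0.33 (standard error 0.34, edgeR adjusted p = 0.613).

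Ratios of counts within a library do not depend on its scaling, and 4 were formed after the values were known. The ratio of HES4 to HES1 was 0.271, 0.334 and 0.325 with siALDOA and 0.224, 0.203 and 0.184 with siControl, or 0.31 ± 0.0343 and 0.204 ± 0.0198 (SD, n = 3 each). The groups did not overlap. The ratio of NOTCH1 to NOTCH2 was 1.14, 1.01 and 1.19 with siALDOA and 0.996, 0.862 and 0.88 with siControl, again without overlap. The ratios of JAG1 to JAG2 and of NRARP to HES1 overlapped between the groups. An exact permutation test of 3 against 3 libraries cannot give a two-sided p below 0.1, and none is given.

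**Figure D3:**
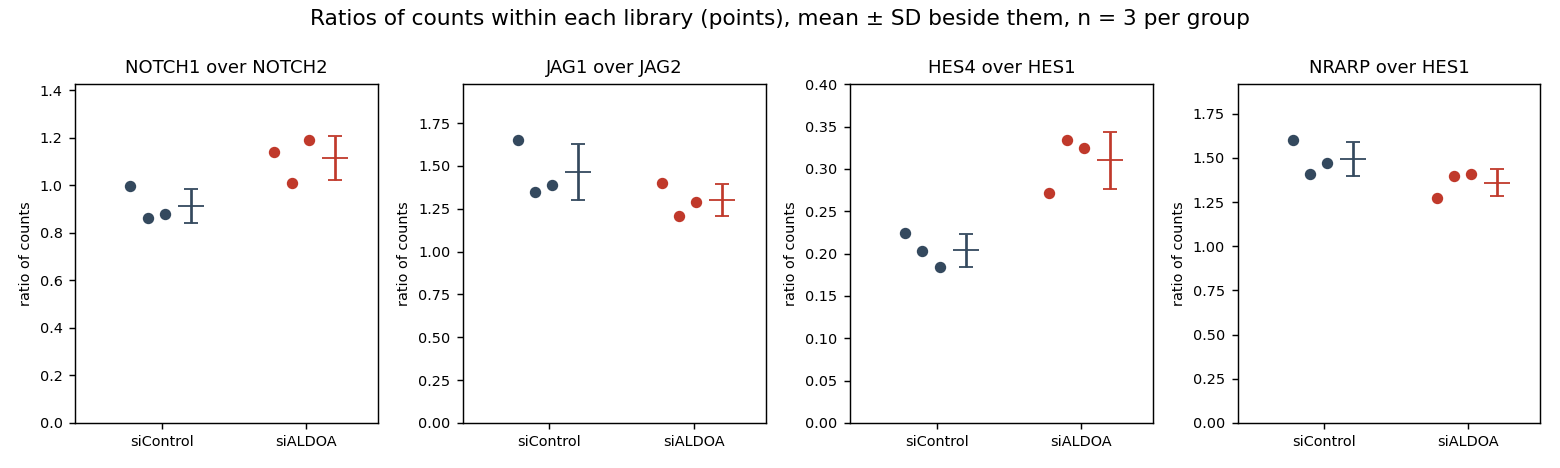
Ratios of counts of 4 pairs of members within each library (points, siControl dark, siALDOA red), with the mean and SD beside them (n = 3 per group, axes from 0). For HES4 over HES1 and NOTCH1 over NOTCH2 every siALDOA point lies above every siControl point, and the other ratios overlapped.

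The machinery that carries the signal was read from 10 lists that hold 83 genes with the members, of which 75 were tested. Of these 3 were called higher and 9 lower, 16% against 9.66% of all tested genes (4.36% higher and 5.29% lower), with a median log2 fold change of -0.033. With library totals only the split was 4 higher and 1 lower, against 896 higher and 279 lower over all tested genes. Without the members, 2 of 65 were higher and 7 lower, 13.8%. The lists of ligand endocytosis, glycosylation and cleavage had no called gene. Of 6 genes of ligand endocytosis, which pulls on the bound receptor, EPN1 had the smallest p, at -0.14 (edgeR adjusted p = 0.248), and was at -0.04 without siALDOA replicate 1. Of 6 genes of receptor glycosylation and maturation, FURIN, which cuts the receptor in the Golgi, had the smallest p, at -0.16 (edgeR adjusted p = 0.089). Of 8 genes of receptor cleavage, the gamma-secretase subunit PSEN2 had the lowest value, at -0.26 (edgeR adjusted p = 0.169), while the proteases ADAM10 and ADAM17 changed by 0.02 and 0.10.

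In the nucleus, RBPJ itself was at 70.8, 73.3 and 73 CPM with siALDOA and 72.2, 68.2 and 70.7 CPM with siControl (log2 fold change 0.04, standard error 0.061, edgeR adjusted p = 0.741). MAML2, a Mastermind-like coactivator, was at 24.4, 25 and 24.5 CPM with siALDOA and 21.1, 16.1 and 15.8 CPM with siControl. It rose in each siALDOA library above all siControl libraries, by 0.48 (standard error 0.10, edgeR adjusted p = 0.00495), while MAML1 (-0.12) and MAML3 (-0.01) were not called. The acetyltransferase gene CREBBP changed by -0.24 (standard error 0.075, edgeR adjusted p = 0.044), and lost the call with library totals only. With 1 library left out at a time, it kept the call only without siALDOA replicate 3, and its edgeR adjusted p reached 0.149.

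Of 12 tested corepressor genes, which hold RBPJ targets silent without Notch, 3 fell, none rose, and 10 had a log2 fold change below 0, with a median of -0.086. Of all tested genes 5.29% were called lower, and 7612 of 15307 were below 0 with a median of 0.002. HDAC1, a histone deacetylase, was at 162, 166 and 156 CPM with siALDOA and 205, 200 and 198 CPM with siControl (log2 fold change -0.32, standard error 0.055, edgeR adjusted p = 0.000668). KDM5A, a histone demethylase, changed by -0.21 (standard error 0.062, edgeR adjusted p = 0.0363). With library totals only the edgeR adjusted p of HDAC1 was 0.0533, and KDM5A also lost the call. KDM5A lost it as well without siALDOA replicate 2 or 3 or siControl replicate 2 or 3 (edgeR adjusted p up to 0.156). Of 10 genes of receptor turnover and trafficking only AAK1, a kinase of clathrin-mediated endocytosis, was called, at -0.29 (standard error 0.074, edgeR adjusted p = 0.0158). This is 10% of the list, near the 9.66% of all tested genes. It lost the call with library totals only and without siALDOA replicate 2 or 3 or siControl replicate 1 or 3, with an edgeR adjusted p of up to 0.0899 over the fits with a library left out. NUMB, the endocytic inhibitor of NOTCH, changed by 0.10 (edgeR adjusted p = 0.389) and FBXW7, which marks the intracellular domain for decay, by 0.12 (edgeR adjusted p = 0.466).

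**Figure D4:**
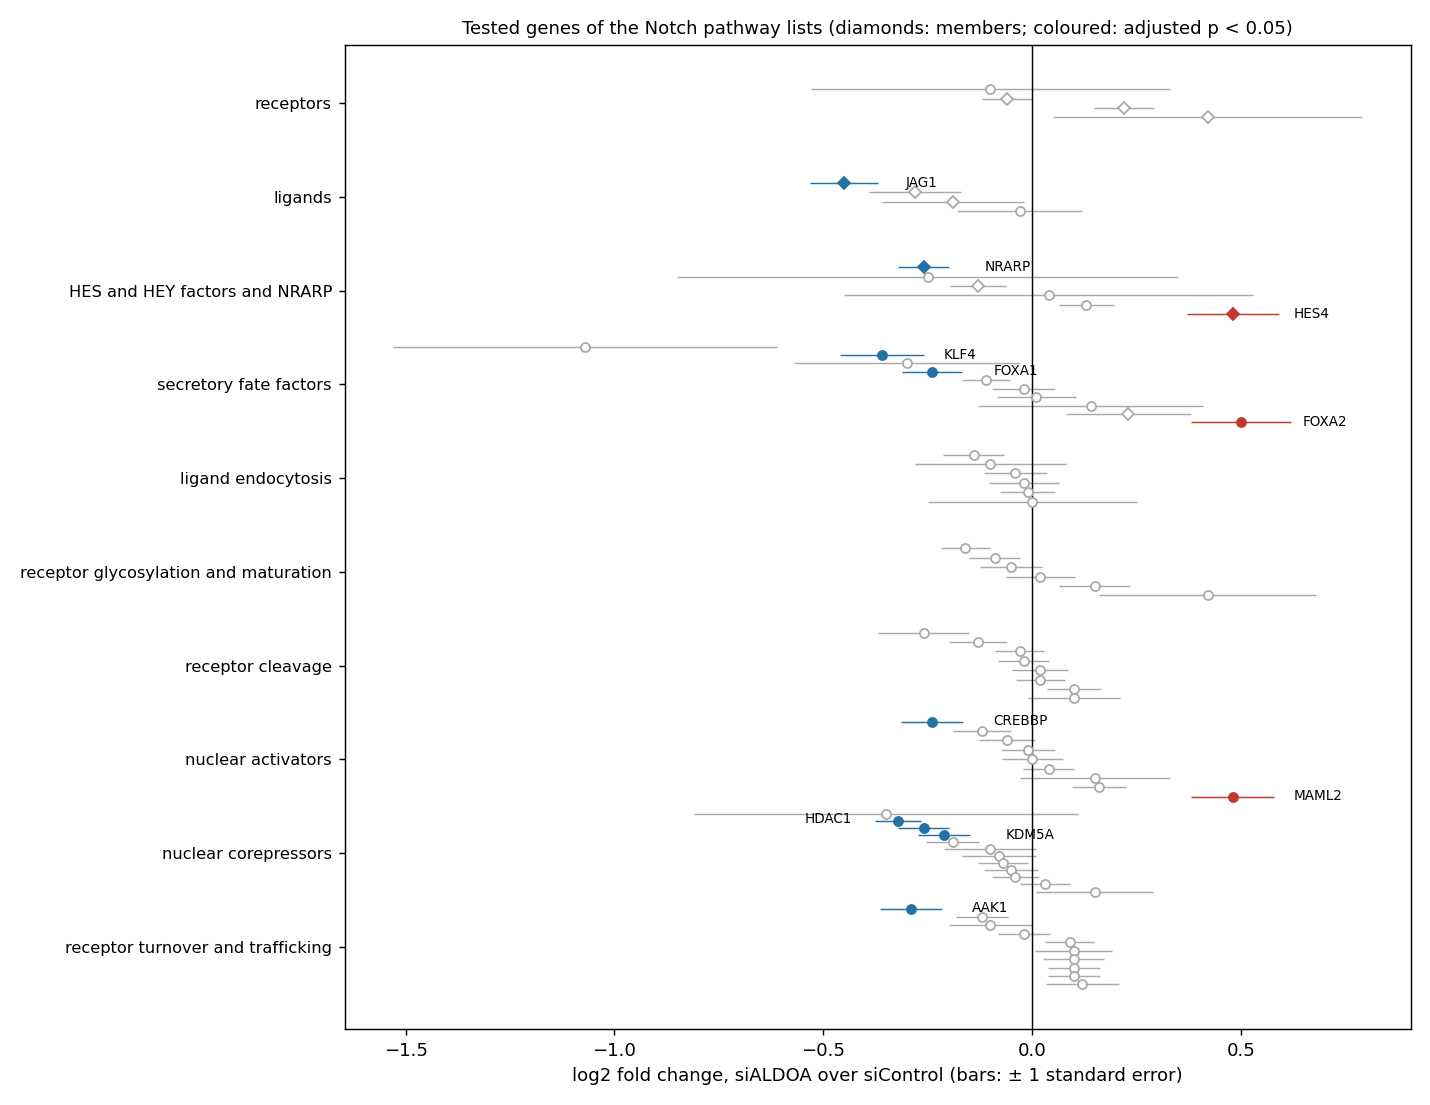
Log2 fold change (siALDOA over siControl) of the 75 tested genes of the Notch pathway by list, with bars of 1 standard error; diamonds are the members and coloured points passed an adjusted p of 0.05 in edgeR. The 12 coloured points are 3 higher genes (HES4, FOXA2 and MAML2) and 9 lower genes, none of them in the lists of receptors, ligand endocytosis, glycosylation or cleavage.

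The 3 called members did not depend on processing to the same extent. JAG1 passed the test under all 17 alternatives that were tried, with log2 fold changes from -0.49 to -0.38. HES4 passed under 16, all but the fit without siControl replicate 3, with 0.41 to 0.56. NRARP passed under 16, all but library totals only, with -0.28 to -0.19. Leaving the ribosomal RNA genes out, with TMM or with library totals only, kept all 3 calls. The other members held their sign under all 17, apart from NOTCH2.

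**Figure D5:**
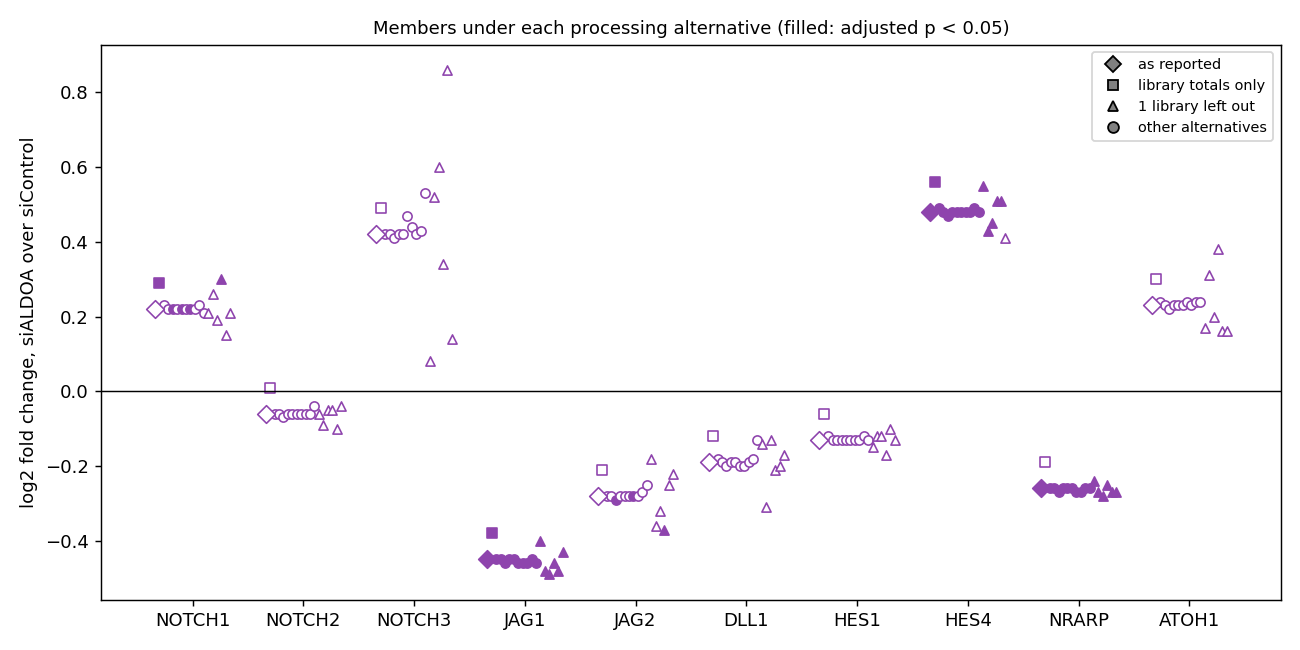
Log2 fold change (siALDOA over siControl) of each member as reported (diamonds), with library totals only (squares), with 1 library left out (triangles) and under the other alternatives (circles); filled points passed an adjusted p of 0.05. JAG1 points are all filled, HES4 and NRARP have 1 open point each, and the widest spread is that of NOTCH3.

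Over the 6 libraries, the genes whose log2 CPM followed each called member most closely were sought among the 13724 genes that averaged 1 CPM or more. For JAG1 they were RASGRF2, STARD7 and ANKRD11, with Pearson's r of 0.998, 0.996 and 0.996. For HES4 they were MST1R, ERI2 and BRCA2, with 0.997, 0.995 and 0.992. For NRARP they were IFRD2, CARNMT1 and HIPK2, with 0.998, 0.998 and 0.996. These values come from 6 points in 2 groups and were the highest of many, and they describe the pattern only.

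The nearest tested genes on either side of the called members were also read, after the values were known. ISG15, an interferon-induced gene that lies 965 bases from HES4 on the opposite strand, was at 407, 498 and 449 CPM with siALDOA and 181, 221 and 196 CPM with siControl. It rose by 1.18 (standard error 0.076, edgeR adjusted p = 8.53e-10), a larger log2 fold change than that of HES4, and its canonical transcript begins 13399 bases from that of HES4. The part of this neighbour in the HES4 result was not tested. PERM1, on the other side of HES4, was not called (-0.75, edgeR adjusted p = 0.144). The nearest tested genes of JAG1, SLX4IP (0.20, edgeR adjusted p = 0.516) and BTBD3 (-0.08, edgeR adjusted p = 0.467), were not called either. BTBD3 lies 1216723 bases from JAG1. Those of NRARP, EXD3 (0.23, edgeR adjusted p = 0.274) and TOR4A (-0.05, edgeR adjusted p = 0.675), were also not called.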

How the data were processed

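The data were 6 RNA-Seq libraries of HT29 cells (3 siALDOA, 3 siControl). The deposited counts are whole numbers per gene symbol, not normalized, made by the authors with TopHat2 (hg38) and gfold. Annotation, strandedness and the treatment of multi-mapped reads are not given in the sources used here. Several copies of ribosomal RNA genes held identical counts, so reads were counted on more than 1 copy.

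Counts were tested in R 4.3.3 with edgeR 4.0.16 (filterByExpr, TMM normalization, quasi-likelihood F-test, all 6 libraries, no covariate) and Benjamini-Hochberg adjustment over 15307 genes, with a threshold of 0.05. Standard errors were obtained as log2 fold change over the root of F. A prior count of 2 entered log2 CPM. The scripts were tested on simulated data, where recovery was required only for changes larger than those of the called members. Coordinates and lengths came from GENCODE release 44 on hg38 and promoter windows from RefSeq. Figures were drawn with matplotlib 3.10.9.

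The members, the pathway lists and the rule for named genes (members, and called genes or the smallest p of each list) were chosen with earlier results of these data known. Alternatives were limma-voom (limma 3.58.1), DESeq2 1.42.0, other scalings and filters, the replicate number as a block, and leaving out each library. Leaving out ribosomal RNA genes, also with library totals only, and thinning to the smallest total were added after seeing the data. The labels call the replicates biological but do not say how they were separated, so p-values measure the spread between these samples. The values of 1 gene of the pathway lists are not reported here, though the counts over the lists include it.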

Additional observations from a re-analysis of the deposited data

How the results depend on the processing

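Over the members and the other named genes, 329 of the values recomputed under an alternative kept their direction and their side of the threshold, 35 lost the call, 9 gained it and 1, that of NOTCH2 with library totals only (0.01), changed sign without a call. Of all tested genes 668 were higher and 810 lower. Library totals only, under which the median of all genes was 0.075, left 279 lower genes, 1 lower member and 1 lower pathway gene beside 4 higher, and raised the higher members to 2. Without the filter on low counts and with DESeq2 there were also 2 higher members, the second being NOTCH1. Leaving out 1 library at a time gave 359 to 644 higher and 471 to 790 lower genes, 0 to 2 higher members, 1 to 4 higher pathway genes and 3 to 8 lower pathway genes. With a replicate block, 987 genes were higher and 1175 lower, with 2 members higher and 3 lower and 4 pathway genes higher and 12 lower; NOTCH1 (edgeR adjusted p = 0.00894), JAG2 (edgeR adjusted p = 0.0297) and FURIN (edgeR adjusted p = 0.0341) gained the call. Same-numbered libraries of the groups, for which no source says what a number shares, had correlations of 0.123, 0.077 and 0.079. Each library correlated best with its own number, but siALDOA replicate 2 and siControl replicate 3 reached nearly as much, 0.074. These margins do not show that the libraries were paired. The cause of the changes under the alternatives was not tested. Leaving out a library changes both the number of samples and which library is absent. NOTCH3, DLL1 and ATOH1, below 10 CPM, had standard errors of 0.37, 0.17 and 0.15, against 0.081 for JAG1.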
